A study of Mus musculus with 20 samples.

Results

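RNA of mouse CD8+ T cells given the partial agonist IL-2-REH for 4 hr was compared with RNA of CD8+ T cells given IL-2 for the same time. The comparison used 2 of the 20 libraries of the study, 1 for each cytokine, chosen by cell type, cytokine and time as the sample labels give them. The CD8+ T cells were taken from spleen and lymph node with a magnetic isolation kit, without a further sort. The methods name C57BL/6J mice and the sample labels name the strain as C57BL/6N, and the age of the mice was not given in the sources used here. No gene was deleted in these cells, and each cytokine was added at 200 nM ex vivo. The other 3 CD8+ libraries were from unstimulated cells and from cells that received either cytokine for 90 min. The unstimulated library was labeled 0 hr, and no library came from cells kept without cytokine for 90 min or 4 hr. A difference from the unstimulated level therefore cannot be told apart from an effect of time in culture. The remaining 15 libraries were from regulatory T cells (Tregs) of B6-Foxp3EGFP mice, sorted by GFP, with 3 libraries for each of the same 5 groups. Because each CD8+ group held 1 library, no difference between CD8+ libraries has a replicate check, and none was tested.

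IL-2 signals through a receptor of up to 3 chains: IL-2Rα, which raises affinity, IL-2Rβ and the common γ chain. When IL-2 brings the β and γ chains together, the kinases JAK1 and JAK3 bound to them are activated and phosphorylate the transcription factor STAT5, whose dimers bind DNA of the form TTCNNNGAA near their target genes. Resting CD8+ T cells carry the β and γ chains with little IL-2Rα, whereas Tregs carry abundant IL-2Rα. The effects of IL-2 on CD8+ T cells include growth, survival and a gain of killing function. IL-2-REH was designed as a weakened IL-2 by substitutions on the face that contacts the common γ chain.

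The genes that were lower under IL-2-REH included known STAT5 targets and genes of the interferon response, and sequence upstream of some of them held the letters that these pathways' factors recognize. The 250 bases before each annotated start were taken from RefSeq promoter sequences of the GRCm38.p6 assembly and searched for TTCNNNGAA, which is its own reverse complement, and for a GAAA repeat, a core of the interferon-stimulated response element, that is GAAA, any 2 bases and GAAA again, or the same in reverse complement with TTTC. Matches could overlap each other. The windows shown are those of 4 genes that were lower under IL-2-REH, followed by a window of Bcl6, which was higher. Irf8 and Bcl6 each had 2 windows in the table, of which the 1 with more matches is shown. They are written 5′ to 3′ on the strand of the gene, hold no annotated exon of GENCODE, and capitals mark the matches.
Igtp, chr11:58199306-58199555, plus strand: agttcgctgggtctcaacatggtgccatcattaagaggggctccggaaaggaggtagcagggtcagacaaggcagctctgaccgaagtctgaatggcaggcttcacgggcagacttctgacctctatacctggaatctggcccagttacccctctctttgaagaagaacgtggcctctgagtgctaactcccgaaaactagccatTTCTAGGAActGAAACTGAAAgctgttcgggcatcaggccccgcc
Gm12250, chr11:58183593-58183842, plus strand: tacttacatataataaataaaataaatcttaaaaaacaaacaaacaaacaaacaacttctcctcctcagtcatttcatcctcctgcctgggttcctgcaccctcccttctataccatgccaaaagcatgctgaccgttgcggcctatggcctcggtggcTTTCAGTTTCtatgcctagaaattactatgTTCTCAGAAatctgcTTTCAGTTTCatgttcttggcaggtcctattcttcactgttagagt
Socs1, chr16:10785537-10785786, minus strand: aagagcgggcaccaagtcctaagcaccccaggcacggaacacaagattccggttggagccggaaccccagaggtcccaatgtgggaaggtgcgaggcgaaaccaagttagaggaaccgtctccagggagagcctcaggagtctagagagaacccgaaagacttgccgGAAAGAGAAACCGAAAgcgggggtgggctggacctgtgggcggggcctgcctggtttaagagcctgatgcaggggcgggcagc
Irf8, chr8:120736108-120736357, plus strand: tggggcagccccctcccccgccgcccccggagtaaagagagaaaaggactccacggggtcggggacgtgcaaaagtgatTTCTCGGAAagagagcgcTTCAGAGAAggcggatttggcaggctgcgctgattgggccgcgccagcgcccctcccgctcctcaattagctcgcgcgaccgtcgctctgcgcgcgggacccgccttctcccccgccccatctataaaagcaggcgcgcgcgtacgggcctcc
Bcl6, chr16:23981284-23981533, minus strand: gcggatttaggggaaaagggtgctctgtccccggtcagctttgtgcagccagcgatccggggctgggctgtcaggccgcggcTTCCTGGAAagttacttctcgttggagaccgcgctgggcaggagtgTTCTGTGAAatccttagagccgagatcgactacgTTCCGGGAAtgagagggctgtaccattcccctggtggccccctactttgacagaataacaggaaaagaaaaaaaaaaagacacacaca
In this Igtp window, TTCTAGGAA lay 45 bases before the start, and a GAAA repeat followed it. The Socs1 window held 2 GAAA repeats that overlap each other and no TTCNNNGAA, and the Irf8 window shown held 2 TTCNNNGAA matches and no GAAA repeat, while its other window held neither. The Bcl6 window, which starts from an internal start site of the gene, held 3 TTCNNNGAA matches, and its other window 1. For Lta, whose window also starts from an internal start site of the gene, a short stretch around each of its 2 matches is shown. The matches lay 152 and 16 bases before that internal start.
Lta, chr17:35205487-35205511, minus strand: catcactcTTCAGGGAAccaggctt
Lta, chr17:35205352-35205375, minus strand: gactccctTTCCCAGAAcgcagta
Across the genes, TTCNNNGAA was present in the windows of 20.4% of the 113 genes lower past a log2 ratio of 1 that had a promoter in the table, 13.3% of the 30 such genes that were higher and 7.38% of all 7841 genes past the filter with a promoter. The GAAA repeat was present for 12.4%, 3.33% and 3.42% of the same genes. Among the 27 interferon-stimulated genes with a promoter, 48.1% held TTCNNNGAA and 59.3% held the GAAA repeat. Without the interferon-stimulated genes, 16.3% and 5.77% of the 104 remaining lower genes did. Every window shown here held a match. Those of Igfbp4, Gzmb, Drc1, Tnf, Cish, Cdk6, Bcl2 and Vim, which were also lower, held no match of either kind. A match is a description of these letters and not evidence of binding, and no match speaks only for this window.

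The IL-2 library held 40936746 reads on genes and the IL-2-REH library 44977546. Markers of CD8+ T cells were abundant in both. Cd8b1, a chain of the CD8 co-receptor, had an RPKM of 289.9 under IL-2 and 290.1 under IL-2-REH, where RPKM is the number of reads scaled to transcript length and library size. The other chain, Cd8a, had 203 and 130.4, and Cd3e, a chain of the T cell receptor complex, 149 and 169. Cd4 was at 0.463 and 0.571. Summed RPKM over the 13 B cell markers was 22.4 and 23.2, over the 8 NK cell markers 21.7 and 24.5, over the 6 CD4 and Treg markers 12.95 and 9.57 and over the 12 granulocyte and erythroid markers 5.61 and 4.42. Over the 12 macrophage and monocyte markers it was 140.3 under IL-2 and 64.1 under IL-2-REH, and most of this was Ly6c2, at 124 and 41.8, a gene that memory CD8+ T cells also express. The macrophage gene Csf1r was at 0.789 and 0.852. Fcgr3, of the same list, was higher under IL-2-REH, at 0.993 and 3.84, on 91 and 376 reads. Of the 10 members whose RPKM averaged 1 or more over the 5 CD8+ libraries, 8 were higher under IL-2-REH (all genes: 61.8%) and 2 lower. None of these markers that the files hold was at an RPKM of 0 in either library. In RNA of a mixed population, fewer cells of a type and less RNA per cell cannot be told apart. The entries Mir6236 and Lars2 took 2.1% of reads on genes under IL-2 and 0.674% under IL-2-REH. Lars2 had an RPKM of 3203 and 1058, a log2 ratio of -1.60, and Mir6236 had 2154 and 646. Both are among the genes counted below as lower past 1. Their part in the other results was not tested.

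Genes were kept when their RPKM averaged 1 or more over the 5 CD8+ libraries. Of these 10021 genes, 29 genes (0.289%) were lower under IL-2-REH past a log2 ratio of 2 and none (0%) was higher by that much. The log2 ratio is that of RPKM + 1, IL-2-REH over IL-2. The added 1 RPKM makes the ratio understate the difference of low genes. With a pseudocount of 0.1 RPKM in place of 1, 51 genes were lower and 9 higher past 2. With CPM + 1 from read counts, 45 were lower and 1 higher when scaled by TMM and 46 and 1 when scaled by DESeq2 size factors. Past a log2 ratio of 1 on RPKM + 1, 168 genes (1.68%) were lower and 55 (0.549%) higher. Most genes differed little, with 87.3% within 0.5, and the median was 0.077. The lowest ratio was -3.49 and the highest 1.804. Of all genes, 38.2% were below 0. Of the 88 named genes with a GENCODE transcript, 34 share exon sequence with another annotated gene, among them Cish, Cdk6, Bcl2, Ccnd2, Ccnd3, Flt3l, Il4ra and Il12rb2, and reads in such overlaps are uncertain because the use of strand was not stated.

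**Figure D1:**
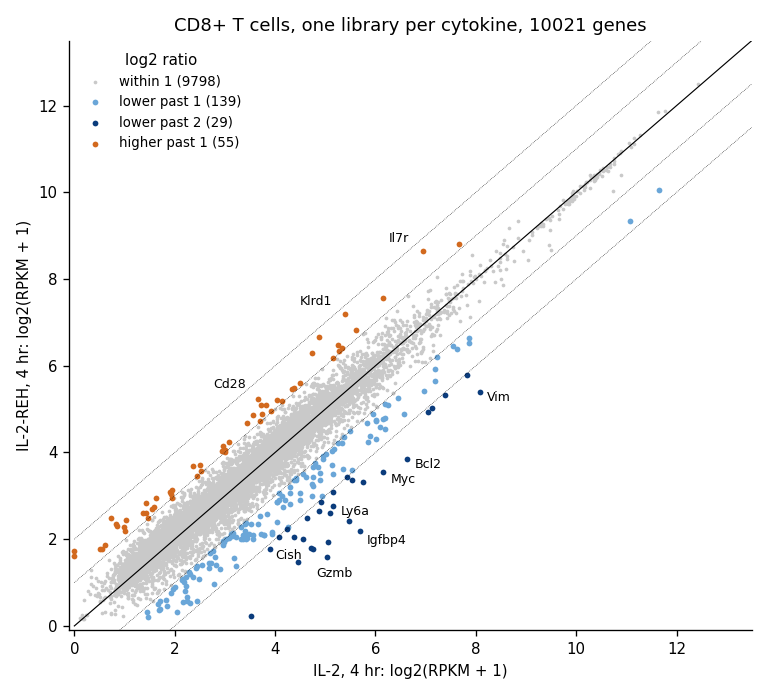
Level of 10021 genes in CD8+ T cells given IL-2 (x axis) or IL-2-REH (y axis) for 4 hr, as log2(RPKM + 1), with 1 library on each axis and 1 point per gene. The solid line marks equal levels and the dotted lines a log2 ratio of 1 and 2 in each direction. Dark blue points are the 29 genes lower past 2, and no point lies above the upper line for 2.

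The feedback inhibitors of cytokine signaling were among the genes with the lowest ratios. Cish, which encodes a STAT5-induced inhibitor of cytokine receptors, had an RPKM of 1.87 in unstimulated cells, 30.6 under IL-2 and 2.47 under IL-2-REH at 90 min, and 26.1 under IL-2 and 2.45 under IL-2-REH at 4 hr. Both IL-2-REH libraries were thus close to the unstimulated library, and both IL-2 libraries far above it. The log2 ratio at 4 hr was -2.97, a ratio of IL-2 to IL-2-REH reads of 10.7, with an exact 95% interval from 9.597 to 11.9 that covers counting error only. Socs1, an inhibitor of JAK kinases whose upstream window held the overlapping GAAA repeats, had 9.25 in unstimulated cells, 36.2 and 8.76 at 90 min and 42.3 and 9.81 at 4 hr, in the order IL-2, IL-2-REH. It was the last gene past 2, at -2.002. Socs3 stood at 34.01 before stimulation, at 39.8 under IL-2 and at 11.3 under IL-2-REH, below the unstimulated level, and Socs2 at 0.557, 2.61 and 0.385. The other members of the family, Socs4, Socs5, Socs6 and Socs7, had log2 ratios between 0.03 and 0.29. Of the 8 SOCS genes, 4 were lower past 1 (all genes: 1.68%). The other 4 were above 0 (all genes: 61.8%), none of them past 1, and the median was -0.68.

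**Figure D2:**
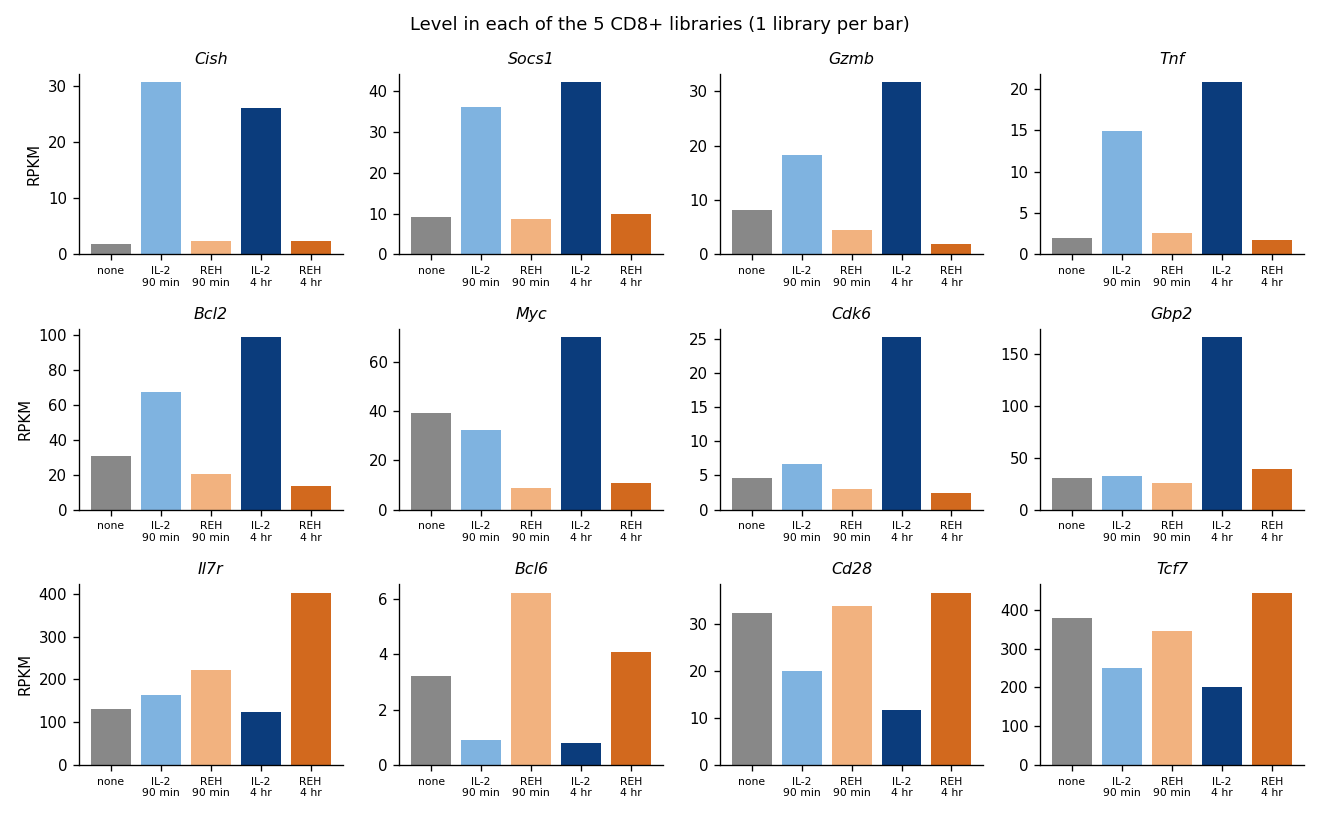
RPKM of 12 genes in each of the 5 CD8+ libraries (x axis: unstimulated, IL-2 and IL-2-REH at 90 min, IL-2 and IL-2-REH at 4 hr), with 1 library per bar, no error bars and a separate y axis from 0 for each gene. In the upper 8 panels the dark blue bar of IL-2 at 4 hr is the highest or, for Cish, the second highest, and in the lower 4 it is the lowest.

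Several cytokine genes were lower under IL-2-REH. Of 13 cytokine and chemokine genes past the filter, out of 24 in the list, 6 were lower past 1 (all genes: 1.68%), none was higher (all genes: 0.549%), and the median log2 ratio was -0.79. Lta, the gene of lymphotoxin alpha, had an RPKM of 3.21 in unstimulated cells and 43.4 under IL-2, against 4.37 under IL-2-REH. Its neighbor Tnf, the gene of the inflammatory cytokine TNF, had 2.03, 20.8 and 1.77 in the same order. For each of them the IL-2-REH library lay near the unstimulated level and the IL-2 library far above it. Osm, the gene of the cytokine oncostatin M and a known STAT5 target, had 4.57, 13.97 and 2.404, and Tnfsf8, the gene of the CD30 ligand, 16.1, 45.6 and 11.1. The chemokine genes Ccl3 and Ccl4 were low in both libraries, at 1.72 and 2.997 under IL-2 and 0.245 and 0.858 under IL-2-REH, after 11.1 and 12.9 in unstimulated cells. Ifng, the gene of interferon gamma, was highest in unstimulated cells at 7.89 and stood at 1.700 under IL-2 and 0.561 under IL-2-REH, on 139 and 49 reads. Its log2 ratio of -0.79 was not past 1. Ltb and Ccl5, the most abundant members under IL-2, differed less, at -0.56 and 0.26.

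Among cytotoxic genes the difference was uneven. Gzmb, which encodes the killing protease granzyme B, had an RPKM of 8.19 in unstimulated cells, 31.7 under IL-2 and 1.999 under IL-2-REH, so that the IL-2-REH library was below the unstimulated one. Its log2 ratio was -3.44, on 3037 and 205 reads. Nkg7, which encodes a protein of cytotoxic granules, had 204, 139 and 31.6, a log2 ratio of -2.102, with both cytokine libraries below the unstimulated one. Fasl, the gene of Fas ligand, was at -1.34. Prf1, which encodes the pore-forming perforin, and Gzma, another granzyme gene, stayed within 1, at -0.87 and -0.98. In contrast, Klrd1, which encodes CD94, a partner of NKG2 receptors, had 84.8 in unstimulated cells, 41.2 under IL-2 and 146 under IL-2-REH, the highest log2 ratio of all genes at 1.804. In total, 3 of 15 cytotoxic genes were lower past 1 (all genes: 1.68%) and 1 was higher (all genes: 0.549%), with a median of -0.38.

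A few genes of survival, growth and entry into the cell cycle were lower in the IL-2-REH library, while the medians of their lists were close to 0. Bcl2, the anti-apoptotic founder of its family, had an RPKM of 30.4 in unstimulated cells, 98.5 under IL-2 and 13.4 under IL-2-REH, a ratio of reads of 7.36 (exact 95% interval from 7.18 to 7.55, counting error only). Bcl2l1, which encodes the related Bcl-xL, was at 10.8 and 3.27, and Mcl1 at 118 and 96.8. The death-promoting members Bcl2l11, the gene of Bim, and Bbc3, the gene of Puma, had ratios on the other side, at 0.58 and 0.78, not past 1. Of 13 BCL2 family genes, 2 were lower past 1 (all genes: 1.68%) and 6 were above 0 (all genes: 61.8%), with a median of -0.12. Myc, the growth-promoting transcription factor, had 39.4, 70.04 and 10.8, and the kinase gene Pim2 43.9, 93.9 and 28.6. Cdk6, the kinase that acts with D-type cyclins in G1, had 4.69, 25.2 and 2.47, with the IL-2 library alone high at 4 hr. Its partners Ccnd2 and Ccnd3, which encode cyclins D2 and D3, had log2 ratios of -2.11 and -1.06. Cdkn1b, the gene of the CDK inhibitor p27, was at 0.62, and Cdk4 at -0.597. Of 17 G1 genes, 3 were lower past 1 (all genes: 1.68%) and 8 were above 0 (all genes: 61.8%), with a median of -0.098. Genes of DNA replication and mitosis had a median of -0.046, and 0 of 20 were lower past 1 (all genes: 1.68%).

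All 29 of 29 known IL-2 and STAT5 targets that passed the filter, out of 30 in the list, had a log2 ratio below 0, against 38.2% of all genes. Of these, 17 were lower past 1 (58.6%, against 1.68% of all genes), and the median was -1.08. Prdm1 did not pass the filter. The list was drawn up with earlier results of these data known and is not independent evidence of its direction. The smallest differences in it were those of the transcription factor gene Eomes, at -0.17, the costimulatory receptor gene Tnfrsf4, at -0.23, and Mcl1, at -0.28. Of the receptor chains, Il2rb alone was lower past 1. Il2rb, which encodes IL-2Rβ, had an RPKM of 122 in unstimulated cells, 186 under IL-2 and 87.5 under IL-2-REH. Il2ra, the gene of IL-2Rα, had 1.58, 6.34 and 3.196, and the common γ chain gene Il2rg 266, 207 and 196, with log2 ratios of -1.08, -0.81 and -0.081 for the β, α and γ chains. Stat5a and Stat5b had log2 ratios of -0.078 and 0.37, and Jak1 and Jak3 0.81 and -0.15. Among receptors of other cytokines, Il4ra was at -1.38, Il12rb1 at -1.11 and Il12rb2 at -1.01. These were the 3 of 20 members lower past 1 (all genes: 1.68%). Il7r, at 1.70, was the 1 member higher past 1 (all genes: 0.549%). In this list 8 members were above 0 (all genes: 61.8%), and the median was -0.13.

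Interferon-stimulated genes followed the IL-2 targets in the number of lower genes. Of 36 past the filter, 34 were below 0 (38.2% of all genes were) and 16 lower past 1 (1.68% of all genes), none was higher past 1, and the median was -0.89. The members past 2 encode GTPases of the guanylate-binding and immunity-related families, which act against pathogens in vacuoles. Igtp had an RPKM of 47.7 in unstimulated cells, 226 under IL-2 and 54.2 under IL-2-REH. Gbp2 had 30.9, 166.1 and 38.9, and Gm12250, an immunity-related GTPase gene, 6.55, 52.7 and 8.95. For these genes the IL-2-REH library lay a little above the unstimulated level. Iigp1 was at -2.48, Gbp6 at -2.08 and Gbp5 at -2.05, and Gbp11, which is in no list and lies close to similar genes, at -2.55. Only unique reads were counted, so reads that match more than 1 near-identical copy can be missing. This concerns the guanylate-binding genes Gbp6, Gbp10 and Gbp11 and also Tgtp1 and Tgtp2. Exons of Igtp overlap those of Irgm2. The separate values of all these genes are therefore uncertain. Genes known for their response to type I interferon differed among themselves. Zbp1, a sensor of nucleic acids, had 29.7, 28.8 and 9.38, a log2 ratio of -1.52, and Usp18 and Bst2 were at -1.27 and -1.04, whereas Ifit1 was at -0.25, Mx1 at -0.23, Ifit3 at 0.23 and Ifit2, the highest member, at 0.62. Psmb8, Psmb9 and Tap1, which serve antigen presentation, were at -0.66, -0.501 and -0.33. The transcription factor gene Irf8 had 3.66, 4.600 and 1.13.

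Genes of ribosome biogenesis were lower by smaller amounts but nearly throughout. Of 40 genes, 38 were below 0 (all genes: 38.2%) and 8 lower past 1 (all genes: 1.68%), with a median of -0.71 and a range from -1.33 to 0.32. The lowest was Rrp1b, a factor of ribosomal RNA processing, with an RPKM of 8.56 in unstimulated cells, 9.54 under IL-2 and 3.18 under IL-2-REH. Tsr1, a ribosome maturation factor, had 24.01, 18.7 and 7.42, Gnl3, the gene of nucleostemin, 28.8, 23.5 and 9.74, and Polr1b, a subunit of RNA polymerase I, 9.83, 9.64 and 4.21. For Tsr1, Gnl3 and Polr1b, as for Ccl3, Ccl4 and Ifng, the IL-2 library was below the unstimulated level and the IL-2-REH library further below it. Time in culture also differed from that of the unstimulated cells, and its part was not tested. The nucleolar genes Ncl and Npm1 were at -0.0091 and 0.16. In metabolism, Eno1, the gene of the glycolytic enzyme enolase, was the 1 of 17 glycolysis genes lower past 1 (all genes: 1.68%), at -1.53 (list median -0.25). The amino acid transporter gene Slc7a5 was the 1 of 14 transporter genes lower past 1 (all genes: 1.68%), at -1.69 (list median -0.25). Of 25 lipid synthesis genes, 22 were below 0 (all genes: 38.2%), with a median of -0.31. Srm, the gene of spermidine synthase in polyamine synthesis, had 14.5, 15.8 and 3.16.

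Some of the lowest ratios belonged to none of these groups. The lowest of all was that of Igfbp4 (chr11:99040005-99052655 of GRCm38, plus strand), which encodes a binding protein of insulin-like growth factors and stands in the quiescence list. It had an RPKM of 67.7 in unstimulated cells, 29.3 under IL-2 and 18.6 under IL-2-REH at 90 min, and 50.5 and 3.57 at 4 hr. The IL-2-REH library at 4 hr alone was near 0. On 7062 and 534 reads, the ratio of IL-2 to IL-2-REH was 14.1 (exact 95% interval from 12.9 to 15.5, counting error only). Drc1 (chr5:30281335-30366695, plus strand), a gene of the dynein regulatory complex of cilia, rested on 1610 reads under IL-2 and 28 under IL-2-REH, a ratio of 61.5 (from 42.4 to 92.8), the largest ratio of reads among the 29. Amica1 (chr9:45079153-45108531, plus strand), the gene of an adhesion molecule also known as Jaml, had an RPKM of 17.5, 32.3 and 2.82 in unstimulated cells, under IL-2 and under IL-2-REH, and its exons overlap Gm10684 on the other strand. Vim, the gene of the cytoskeletal protein vimentin, was abundant, at 133, 269.8 and 41.1. Ly6a, which encodes the surface protein Sca-1, had 15.8, 34.5 and 5.79, and Rgs1, a regulator of G protein signaling, 32.8, 28.4 and 5.295. The remaining genes past 2, named because they complete the 29 and after their values were seen, were Ecm1, at -2.32, S100a6, at -2.17, Flt3l, at -2.15, and Gbp10, at -2.01, beside Srm, at -2.02.

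Genes that were higher under IL-2-REH included Il7r, Tcf7 and Cd28, which resting T cells express. Il7r, the gene of the IL-7 receptor α chain, had an RPKM of 130.0 in unstimulated cells, 164.1 under IL-2 and 223 under IL-2-REH at 90 min, and 123.2 and 403 at 4 hr, so that the IL-2 library was near the unstimulated level and the IL-2-REH library 3.27 times as high in reads as the IL-2 library (exact 95% interval from 3.22 to 3.31, counting error only). Cd28, the costimulatory receptor gene, had 32.3, 11.7 and 36.6, and Tcf7, the gene of the transcription factor TCF1 of naive and memory cells, 378, 201 and 444. In these genes it was the IL-2 library that stood below the unstimulated level. Bcl6, a transcriptional repressor known to be turned off by STAT5, showed the same with 3.21, 0.777 and 4.07, on 173 and 968 reads. Its log2 ratio was 1.51. Tnfaip3, the gene of the NF-kB inhibitor A20, was far below its unstimulated level of 259.6 in both libraries, at 12.1 and 32.97. Tob1, an antiproliferative gene, was at 1.16, Ikzf2, the gene of Helios, at 1.14, and the G protein regulators Rgs2 and Rgs10 at 1.31 and 1.06. Fam101b, Arl5c, Smc4, St8sia6, Kcna2 and Gpr174 completed the protein-coding genes among the 15 highest, between 1.32 and 1.78. Of the same 15, 4 were small RNA entries under 200 bases, Snord45b, Scarna9, Mir7068 and Mir1839, each with at most 21 reads in a library, and Mir7068 and Snord45b lie within exons of Cherp and Rabggtb, so that their values are not precise. Entries under 200 bases made up 11 of the 55 higher and 11 of the 168 lower genes past 1.

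Of 27 genes of quiescence and homing, 23 were above 0, against 61.8% of all genes. Past 1, 3 were higher (all genes: 0.549%) and 1, Igfbp4, was lower (all genes: 1.68%). The median was 0.41, against 0.077. Pik3ip1 and Btg2, which restrain growth signals and proliferation, were at 0.98 and 0.92, S1pr1, the receptor for exit from lymph nodes, at 0.44, and Klf2 and Ccr7, which control homing, at 0.26 and 0.11. Of 24 genes of T cell receptor signaling 0 were lower past 1 (all genes: 1.68%) and 1, Cd28, was higher (all genes: 0.549%), with a median of 0.062. Of 22 immediate early genes, Jun, at -1.03, and Myc were lower past 1 (all genes: 1.68%), with a median of -0.041. Fos was at 1.44 and 1.38 after 116 in unstimulated cells. None of 12 chemokine and S1P receptor genes and none of 10 genes of MAPK phosphatases and Sprouty was past 1 (medians 0.196 and 0.012). Of all genes, 1.68% were lower and 0.549% higher past 1. Of 15 NF-kB genes, 11 were above 0 (all genes: 61.8%) and 1, Tnfaip3, was higher past 1 (all genes: 0.549%), with a median of 0.38. Of 21 effector and memory transcription factors, 2 were lower past 1 (all genes: 1.68%), Irf8 at -1.396 and Tbx21, the gene of T-bet, at -1.05. Bcl6 and Ikzf2 were higher past 1 (all genes: 0.549%), and Eomes was at -0.17. Tnfrsf18, the gene of GITR, was the 1 of 11 TNF receptor genes past 1, at -1.49 (all genes lower past 1: 1.68%).

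**Figure D3:**
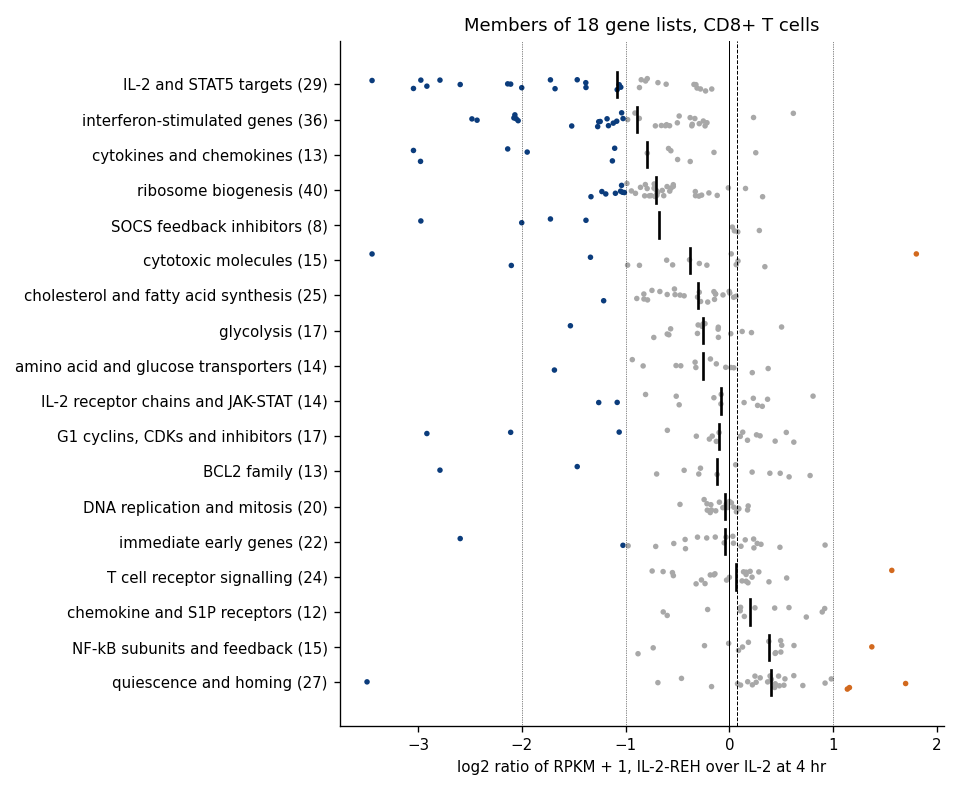
Log2 ratio of RPKM + 1 at 4 hr, IL-2-REH over IL-2 (x axis), of the members of 18 gene lists past the filter, with their number in parentheses, 1 point per gene from 1 pair of libraries. Black bars are list medians, the dashed line is the median of all genes (0.077), and colored points are past 1. The points of the IL-2 and STAT5 targets all lie below 0, and most of those of the quiescence list lie above it.

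The 90 min pair of CD8+ libraries shares no library with the 4 hr pair. At 90 min, 7 genes (0.0699%) were lower past 2, 81 (0.808%) were lower past 1 and 6 (0.0599%) higher. All 29 genes lower past 2 at 4 hr were below 0 at 90 min, and 19 of them were below -1. Of the 168 genes lower past 1 at 4 hr, 95.8% were below 0 at 90 min, against 70.5% of all genes, and 55 were below -1. Of the 55 higher genes, 49 (89.1%) were above 0, against 29.5% of all genes. The median over all genes was -0.068 at 90 min and 0.077 at 4 hr. The SOCS genes had a median of -0.68 at 90 min and -0.68 at 4 hr, and the IL-2 and STAT5 targets -1.16 and -1.08. The interferon-stimulated genes had -0.29 and -0.89, and ribosome biogenesis -0.14 and -0.71. Cish, Rgs1, Tnfsf8 and Bcl6 were further from 0 at 90 min, at -3.19, -2.83, -2.59 and 1.93. Cdk6, Gbp2, Igfbp4 and Slc7a5 had most of their difference at 4 hr, with -0.95, -0.33, -0.63 and -0.016 at 90 min against -2.92, -2.07, -3.49 and -1.69. Across the 10021 genes, which are not independent replicates, the ratios of the 2 pairs had a Pearson correlation of 0.657.

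**Figure D4:**
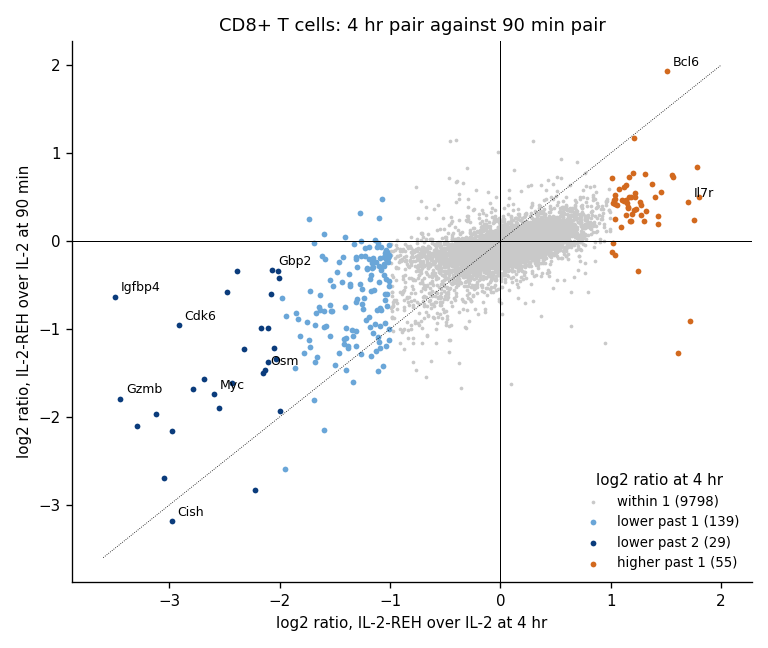
Log2 ratio of RPKM + 1, IL-2-REH over IL-2, at 4 hr (x axis) and at 90 min (y axis) in CD8+ T cells, 1 point per gene from 1 pair of libraries at each time. The dotted line marks equal ratios. The 29 dark blue points all lie below 0 on the y axis, and Cish and Rgs1 are below the dotted line.

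The Treg libraries gave the only measure of spread between libraries in the study. In 27 of the 29 genes lower past 2, the CD8+ difference was larger than the largest difference between any 2 Treg libraries of the same group, as it was in 105 (62.5%) of the 168 lower genes, 23 (41.8%) of the 55 higher genes and 324 (3.23%) of all genes. For Cish the largest such Treg difference was 0.73 and for Bcl2 1.603, and for Igfbp4 and Gzmb it was 2.63 and 2.09. The genes past 2 and past 1 were chosen by the size of the same CD8+ difference, which raises these shares, and the spread of CD8+ libraries may differ from that of Tregs. In the 3 same-numbered Treg pairs at 4 hr, 14 of the 29 genes and 91 (54.2%) of the 168 were below 0 in every pair, against 12.9% of all genes, and 60% of the 55 higher genes were above 0 in every pair, against 29.7%. The sizes differed between the cell types. Cish had -0.68, -0.998 and -0.57 in Treg pairs 1, 2 and 3, against -2.97 in CD8+ T cells, and Bcl2 -0.33, -0.73 and -0.24, against -2.79. Vim had -0.82, -1.27 and -1.53, and Cdk6 -0.597, -0.95 and -1.697. Igfbp4 was near 0 in every Treg pair, at -0.044, 0.017 and -0.022, and so was Drc1, at 0.068, 0.15 and -0.091. Their mean RPKM over the Treg libraries was 14.6 and 1.81, and at the low level of Drc1 the added 1 RPKM draws the ratio toward 0. The interferon-stimulated genes had medians of 0.16, -0.62 and 0.22, so that pair 2 alone was on the CD8+ side, and Lta and Tnf were above 0 in pair 3, at 0.56 and 0.45. Il7r had 0.996, 0.75 and 1.21, and Bcl6 0.83, 1.81 and 1.77, above its CD8+ value in 2 of the 3 pairs. The median over the IL-2 and STAT5 targets was -0.33, -0.69 and -0.26 in the Treg pairs, against -1.08 in CD8+ T cells. The difference between the cell types was not tested.

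**Figure D5:**
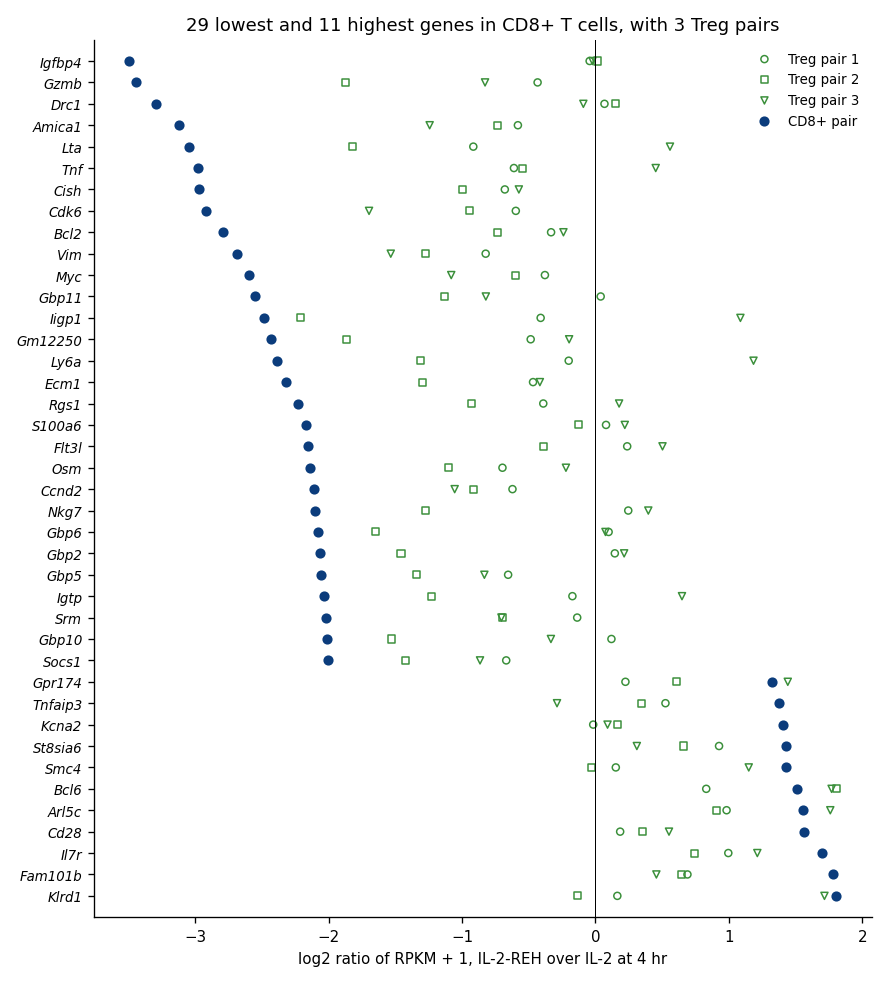
Log2 ratio of RPKM + 1 at 4 hr, IL-2-REH over IL-2 (x axis), of the 29 lowest genes and the 11 highest genes of at least 200 bases in CD8+ T cells (y axis), with filled points for the CD8+ pair and open symbols for the 3 same-numbered Treg pairs. Genes were ordered by the CD8+ value, which therefore lies at the edge. Igfbp4 and Drc1 sit near 0 in the Treg pairs, and the level of Drc1 in Tregs was low (mean RPKM 1.81).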

How the data were processed

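RNA-seq libraries (poly(A) mRNA kit, HiSeq3000, single-end reads) of CD8+ T cells, 1 per group, and of Tregs, 3 per group, were used. The authors aligned reads to mm10 with Bowtie2 2.2.6 and TopHat2 2.1.1 and used SAMtools 0.1.8 and bedtools 2.25.0, per the submitters' processing notes, and they deposited, for 31682 RefSeq transcripts of 23992 symbols, the count of unique reads on exons, not normalized, and the RPKM, scaled to exon length and mapped reads. Whether strand was used is not given in the sources used here. edgeR is named in the notes without a version.

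Each symbol was represented by its most read transcript, summed over the 20 libraries. A gene was kept when its RPKM averaged 1 or more in the 5 CD8+ libraries (10021 genes), and log2 ratios of RPKM + 1 were counted past 2 and past 1. With 1 library per group no test was run and no p-value is given. Mapped reads, from reads and RPKM, were 67741311 (IL-2) and 72417821 (IL-2-REH). Ratios of read counts, scaled to these, carry an exact 95% interval (conditional binomial, Clopper-Pearson), which covers counting error only. The spread between libraries was taken from Treg libraries of the same group, whose labels do not say whether they came from separate mice. Same-numbered Treg pairs share the number in their labels.

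The named genes were the 15 lowest and 15 highest, the genes the study names for RNA in CD8+ T cells, and members of 28 fixed lists, by role or past 1. Genes outside this rule are marked in the text, and some genes within it are not reported here. The gene lists, members and alternatives were chosen with earlier results of these data known. Of the symbols, 23640 were found by accession in the RefSeq table of GRCm38.p6, the build of the files. Promoter windows were not found for every gene. The ratio and interval computations were tested on simulated data. Alternatives were a pseudocount of 0.1, a minimum mean RPKM of 5, no filter, centring on the median, the longest transcript, and CPM + 1 from counts scaled by TMM (edgeR 4.0.16) or DESeq2 1.42.0 size factors in R 4.3.3. Python 3.11.15, pandas 2.3.3, numpy 2.4.6, scipy 1.17.1 and matplotlib 3.10.9 were used.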

Additional observations from a re-analysis of the deposited data

Results flagged for a closer look

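Of the named genes past 1, 4 stood apart. In each, the CD8+ pair at 4 hr lay on the other side of 0 from all 3 Treg pairs or from the CD8+ pair at 90 min. Each CD8+ value rests on 1 pair of libraries, and none of these differences was tested. Tnfsf8, the gene of the CD30 ligand, had a log2 ratio of -1.95 at 4 hr in the CD8+ pair, IL-2-REH over IL-2, and 0.26, 0.44 and 0.41 in the 3 Treg pairs. Snord45b, an entry under 200 bases within an exon of Rabggtb, had 1.76 in the CD8+ pair, on 2 and 15 reads, and -1.53, -0.69 and -0.09 in the Treg pairs. Scarna9 had 1.72 at 4 hr, on 0 and 7 reads, and -0.905 at 90 min in CD8+ T cells. Mir7068 had 1.61 at 4 hr, on 0 and 11 reads, and -1.27 at 90 min.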

How the results depend on the processing

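The count of 29 genes past 2 was 223 at a threshold of 1, 60 with a pseudocount of 0.1 (51 lower, 9 higher), 46 with TMM-scaled CPM (45 lower, 1 higher) and 47 with DESeq2 size factors (46 lower, 1 higher), and it stayed between 28 and 32 under the other alternatives, transcripts under 200 bases left out among them, an alternative chosen after seeing the data. The count of 223 past 1 was 371 with a pseudocount of 0.1 (255 lower, 116 higher) and within 1.5 times of the main count, at most 297, under the others. The share of lower genes below 0 in all 3 Treg pairs, 54.2%, was 64.1% with pairs centred on their medians (all genes: 20.6%) and from 57.1% to 69.0% without each replicate pair in turn, for which all genes gave 19.8% to 22%. Both were chosen after seeing the data. The share below 0 at 90 min was 91.7% when centred, against 50% of all genes. None of the named genes past a log2 ratio of 1 turned its direction under any alternative that kept it. A minimum mean RPKM of 5 kept 72 of the 91 named genes. Genes past 1 that are not named were not checked for direction. The medians of 20 of the 28 lists did not turn either. The other 8 medians, between -0.34 and 0.062, turned under at least 1 alternative. Those of T cell receptor signaling, MAPK phosphatases and RGS proteins fell below 0 when centred or with scaled CPM, and that of the G1 genes was 0.22 at a minimum mean RPKM of 5. Of the values of the 91 named genes under alternatives, 568 moved by less than the Treg replicate SD and 50 by more, as did 183 and 12 of those of the 28 list medians. The scaled CPM are not per length, so their added 1 weighs differently on short and long transcripts. No paired analysis was possible because the result comes from no test, with 1 CD8+ library per group. Depth limits the small RNA entries, and the lack of CD8+ replicates limits every value.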
